A study of Mus musculus with 9 samples.

Results

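Medium spiny neurons are the GABAergic projection neurons that make up most of the striatum. Here 9 of their best known genes were followed across mice with cerebral venous sinus thrombosis (CVST): the receptors Drd1, Drd2, Adora2a and Gpr6, the neuropeptide precursors Penk and Tac1, and the signalling genes Ppp1r1b, Rgs9 and Pde10a. These 9 genes were taken by symbol from the 20731 genes of the count table, and all 9 passed the filter on low counts. They were chosen by their levels in these same libraries, since earlier results had shown them lower after lymph node ligation, so their difference between CVST_Ligation and CVST is given as a description without a test. The list names the neurons that the genes are known from. The tissue is labelled only as brain, and the design text of the series calls it cortex.

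All 9 mice were male C57BL/6J mice of 8 to 10 weeks, according to the methods, and all had a thrombosis of the superior sagittal sinus. RNA was taken on day 2, from 3 mice in each of the groups named CVST, CVST_Ligation and CVST_Ligation_4_PBA, with 1 library per mouse. The CVST_Ligation mice also had their deep cervical lymph nodes ligated at the hilum, which the paper reports to have impaired the function of the meningeal lymphatic vessels. The CVST_Ligation_4_PBA mice (4-PBA mice below) had thrombosis, ligation and 4-phenylbutyric acid, a chemical chaperone that lowers endoplasmic reticulum stress. The methods give 100 mg/kg by intraperitoneal injection 30 min before modelling, whereas the design text places 4-PBA after the ligation. No sham library was analysed here, so levels in an uninjured brain are not known from these files.

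Dopamine acts on medium spiny neurons through cyclic AMP. Neurons of the direct pathway carry the D1 receptor (Drd1), which raises cyclic AMP, and make substance P from Tac1. Neurons of the indirect pathway carry the D2 receptor (Drd2), which lowers it, together with the adenosine receptor Adora2a and Gpr6, which both raise it, and make enkephalin from Penk. Both classes hold DARPP-32 (Ppp1r1b), a protein phosphatase 1 inhibitor switched on by cyclic AMP, the G protein brake Rgs9 and the cyclic nucleotide phosphodiesterase Pde10a. None of these genes is used by medium spiny neurons alone: Ppp1r1b is also made in deep cortical neurons, Penk and Tac1 in hypothalamic neurons and cortical interneurons, and Drd2 in midbrain dopamine neurons.

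The libraries held 19392081 to 24166917 counts in CVST, 18835705 to 24157584 in CVST_Ligation and 18100739 to 25091498 in 4-PBA mice. Levels are given as CPM, a gene's TMM-scaled share of the counts of its library, and 3 counts corresponded to 0.124 CPM in the CVST 1 library when its total counts are taken without TMM scaling. Some marker lists of other brain regions stood apart between groups, as the plot of summed marker lists shows. The summed level of 10 midbrain dopamine neuron genes was 18.02 to 19.6 CPM in CVST, 170 to 208 in CVST_Ligation and 228 to 232 in 4-PBA mice, and the defining genes Foxa2 and Pitx3 were at 0 in every CVST library. For 10 thalamic genes the ranges were 82.3 to 85.5, 166 to 328 and 352 to 706 CPM, and for 10 hypothalamic genes 5.19 to 43.0, 12.7 to 57.1 and 301 to 581 CPM. The list of 10 cortical excitatory neuron genes summed to 2344 to 2566 CPM in CVST, 718 to 1968 in CVST_Ligation and 818 to 1119 in 4-PBA mice. The library CVST_Ligation 2 alone held 1458 CPM of 9 cerebellar genes, against 32.4 to 88.7 in the other 8. The midbrain and thalamic sums did not overlap between any of the groups, the hypothalamic sum of the 4-PBA mice lay above and the cortical sum of the CVST mice lay above those of the other groups, and the cerebellar sum stood apart in 1 library and not in a group. Which regions were sampled from each mouse was not tested, and a difference in sampled tissue cannot be told apart from the ligation or 4-PBA in the differences of the medium spiny neuron genes. In whole tissue, fewer cells of a type and less RNA per cell cannot be told apart either.

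**Figure D1:**
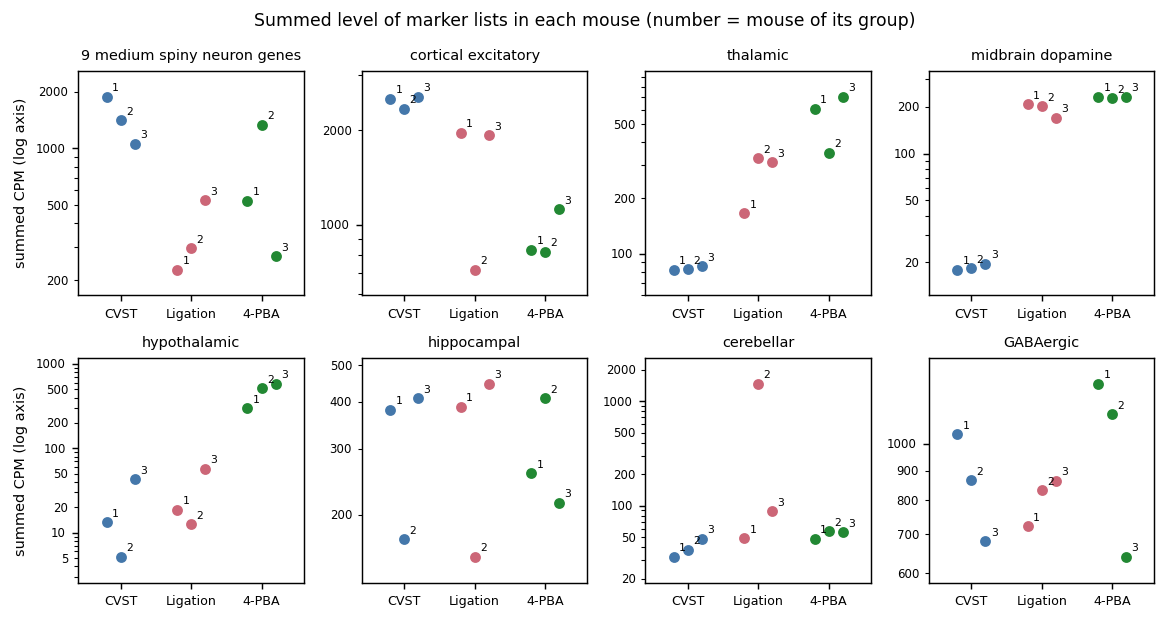
Summed CPM (log axis, 1 scale per panel) of the 9 medium spiny neuron genes and of 7 marker lists in each mouse; points are mice, numbered within their group. The medium spiny neuron genes sum to 1061 to 1886 CPM in CVST, 228 to 531 in CVST_Ligation and 268 to 1336 in 4-PBA mice, while midbrain and thalamic lists are lowest in CVST and the hypothalamic list is highest in 4-PBA mice.

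Ligation vs CVST is the comparison that led to the choice of these genes. All 9 had a lower fitted level in CVST_Ligation than in CVST mice, with a median log2 fold change of -2.23 and a range of -3.82 to -1.32, beside a median of 0.002 over the 14746 genes tested and 49.7% of those genes below 0. For 7 genes every CVST_Ligation mouse lay below every CVST mouse, a pattern that 7.21% of all genes tested showed. Drd2 and Pde10a overlapped. In the edgeR fit the largest differences belonged to Gpr6 and Adora2a, and the smallest to Tac1. This order depended on the method: on log2(FPKM + 1) in limma Drd2 (-1.20) differed less than Tac1 (-1.28), and Gpr6 (-2.17) less than Rgs9 (-2.31).

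**Figure D2:**
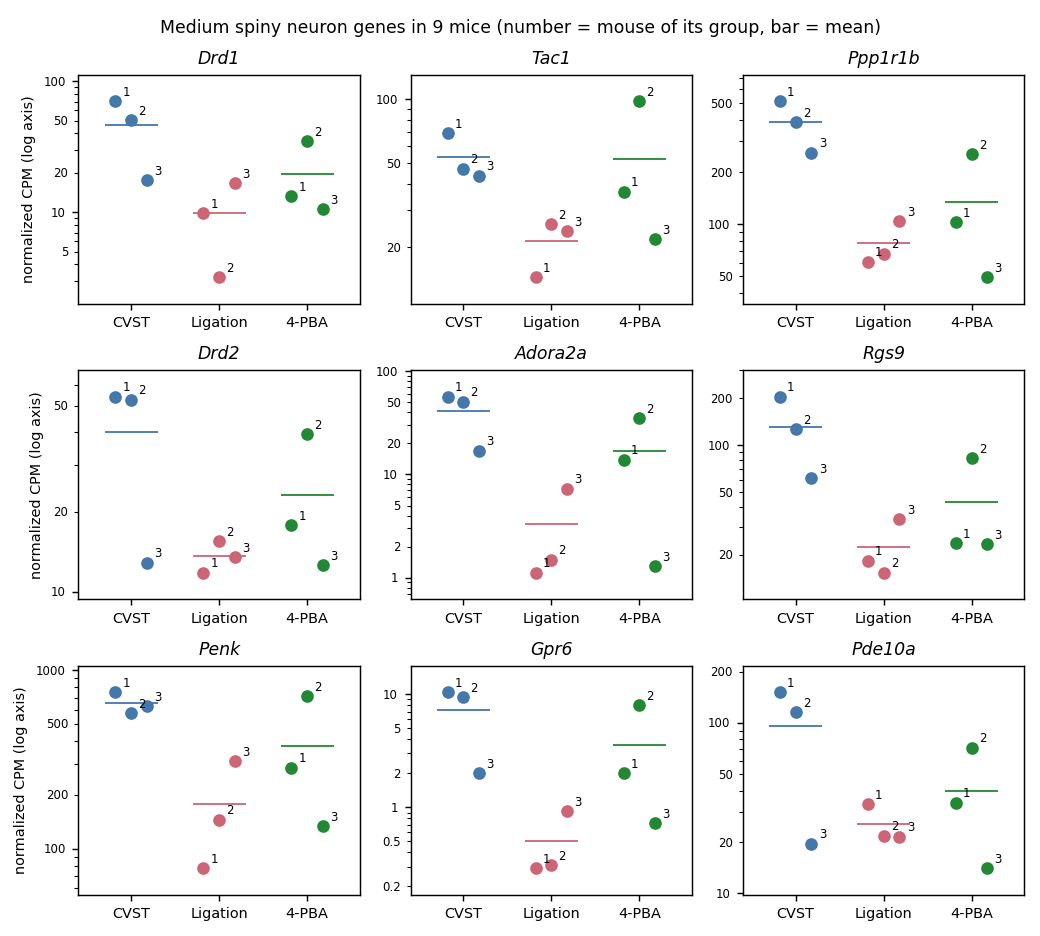
Level of each of the 9 genes in CPM (log axis, 1 scale per panel) in the 9 mice; points are mice, numbered within their group, and bars are group means. CVST 3 is the lowest CVST mouse in 8 panels, and 4-PBA 2 lies above all 3 CVST_Ligation mice in all 9.

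Drd1 encodes the dopamine receptor of the direct pathway. Its level was 70.8, 50.7 and 17.6 CPM in the CVST mice 1 to 3, 9.88, 3.19 and 16.6 in the CVST_Ligation mice and 13.3, 35.01 and 10.6 in the 4-PBA mice. The groups CVST and CVST_Ligation did not overlap, but CVST 3 and CVST_Ligation 3 were nearly level, and 4-PBA 2 was the only ligated mouse above CVST 3. In Ligation vs CVST the fitted log2 fold change was -2.23 (SE 0.69).

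Drd2 encodes the dopamine receptor of the indirect pathway. Its level was 54.3, 52.8 and 12.9 CPM in CVST, 11.8, 15.5 and 13.4 in CVST_Ligation and 17.8, 39.2 and 12.6 in 4-PBA mice. CVST 3 lay inside the range of the CVST_Ligation mice, which were close to one another, so the groups overlapped. The difference of Ligation vs CVST was -1.56 on the log2 scale (SE 0.54). It was -2.00 without CVST 3, -1.28 without CVST 1, -1.31 without CVST 2 and -1.20 on log2(FPKM + 1) in limma. Drd2 is also the autoreceptor of midbrain dopamine neurons, and Slc6a3, the dopamine transporter of those neurons, was 0.425, 0 and 0.108 CPM in CVST, 66.2, 5.62 and 44.7 in CVST_Ligation and 69.5, 54.5 and 58.3 in 4-PBA mice. The share of Drd2 counts that came from midbrain neurons was not tested.

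Adora2a encodes the adenosine receptor that opposes Drd2 in the same neurons. Its level was 56.9, 50.7 and 17.0 CPM in CVST, 1.12, 1.495 and 7.25 in CVST_Ligation and 13.9, 35.3 and 1.30 in 4-PBA mice. All CVST_Ligation mice lay below all CVST mice, and the 4-PBA mice spanned both groups, with 1 mouse at the level of the ligated mice and 1 inside the CVST range. The log2 fold change of Ligation vs CVST was -3.66 (SE 1.09). Leaving out 1 library gave -5.00 to -3.24, the value farthest from 0 being that without CVST_Ligation 3, whose level was the highest of its group.

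Gpr6 encodes an orphan receptor that is constantly active and keeps cyclic AMP up in indirect pathway neurons. Its level was 10.4, 9.36 and 2.01 CPM in CVST, 0.289, 0.309 and 0.923 in CVST_Ligation and 2.00, 7.95 and 0.724 in 4-PBA mice. The CVST_Ligation values rest on 7, 6 and 21 counts. All CVST_Ligation mice lay below all CVST mice, and 4-PBA 1 was level with CVST 3. Ligation vs CVST gave a log2 fold change of -3.82 (SE 0.98), and on log2(FPKM + 1) it was -2.17, since the added constant is larger than the level of the ligated mice.

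Penk encodes the precursor of the enkephalins, opioid peptides. Its level was 754, 572 and 629 CPM in CVST, 77.7, 145 and 310 in CVST_Ligation and 284, 713 and 134 in 4-PBA mice. The CVST mice differed from each other by a factor of 1.32 only and all lay above the CVST_Ligation mice, while 4-PBA 2 stood among the CVST mice. Between the groups the log2 fold change was -1.88 (SE 0.61). It was -2.55 without CVST_Ligation 3 and -1.52 without CVST_Ligation 1.

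Tac1 encodes the precursor of substance P and neurokinin A. Its level was 69.3, 46.9 and 43.5 CPM in CVST, 14.4, 25.7 and 23.9 in CVST_Ligation and 36.5, 98.2 and 21.8 in 4-PBA mice. The CVST and CVST_Ligation mice did not overlap, and 4-PBA 2 was the highest of all 9 mice, which held for no other of the 9 genes. The log2 fold change of Ligation vs CVST was -1.32 (SE 0.49).

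Ppp1r1b, the DARPP-32 gene, had 514, 387 and 258 CPM in CVST, 60.6, 67.6 and 104 in CVST_Ligation and 102, 253 and 49.4 in 4-PBA mice. All 6 mice with ligation lay below all CVST mice, although 4-PBA 2 was only slightly below CVST 3. Rgs9, which speeds the end of G protein signals, had 204, 127 and 61.2 CPM in CVST, 18.3, 15.3 and 33.6 in CVST_Ligation and 23.7, 82.8 and 23.3 in 4-PBA mice. The CVST_Ligation mice again lay below all CVST mice, and of the 4-PBA mice only 4-PBA 2 entered the CVST range. The log2 fold changes of Ligation vs CVST were -2.32 (SE 0.53) for Ppp1r1b and -2.55 (SE 0.60) for Rgs9.

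Pde10a, which breaks down cyclic AMP and cyclic GMP, had 152, 116 and 19.5 CPM in CVST, 33.4, 21.7 and 21.4 in CVST_Ligation and 34.0, 71.4 and 14.0 in 4-PBA mice. CVST 3 was below every CVST_Ligation mouse, so the groups overlapped. Its log2 fold change was -1.91 (SE 0.72). It was -2.41 without CVST 3, -1.41 without CVST 1 and -1.38 on log2(FPKM + 1) in limma. The library CVST 3 was low in long genes in general: against the other 2 CVST libraries its median log2 difference was 0.21 in short genes and -0.17 in long genes, when genes were ranked by length into 3 equal classes, with -0.15 to 0.12 in the other 8 libraries. Pde10a (2782 bases in the lengths behind the FPKM) and Rgs9 (2130 bases) belong to the class of long genes, and the part of gene length in their values was not tested. CVST 3 also stood apart from CVST 1 and 2 in some of 7 hippocampal genes, with Spink8 at 22.2 CPM against 0.297 and 1.15, Fibcd1 at 27.7 against 1.91 and 1.38 and C1ql2 at 11.3 against 0.085 and 0.0443. Wfs1 did not set it apart, at 370, 161 and 322 CPM in CVST 1 to 3, and Prox1 was 6.93, 8.03 and 10.2. Such levels were not particular to CVST 3: in CVST_Ligation mice Fibcd1 was 38.7, 5.26 and 23.4 CPM and C1ql2 29.8, 3.30 and 21.1. The sum of the 7 hippocampal genes, with Wfs1 as its largest part, was 173 to 409 CPM in CVST, 155 to 447 in CVST_Ligation and 215 to 409 in 4-PBA mice. It hid differences of single genes: in Ligation vs CVST the log2 fold change was -0.29 (SE 0.49) for Wfs1, 1.50 (SE 0.43) for Prox1 and 2.64 (SE 0.97) for Lct. The part of hippocampal tissue in the levels of Drd2 and Pde10a in CVST 3 was not tested.

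In the GRCm38 annotation (GENCODE M21) the 9 genes are protein coding and lie on 7 chromosomes: Drd1 on chromosome 13 from 54051183 to 54055705, Drd2 on 9 from 49340627 to 49408177, Adora2a on 10 from 75316877 to 75334784 and Gpr6 on 10 from 41069977 to 41072285. Penk lies on chromosome 4 from 4133531 to 4138819, Tac1 on 6 from 7554879 to 7565834, Ppp1r1b on 11 from 98348404 to 98357796, Rgs9 on 11 from 109225355 to 109298129 and Pde10a on 17 from 8525372 to 8986648. Exons of Ppp1r1b and Penk overlap non-coding genes of the opposite strand (1700003D09Rik and A830012C17Rik), and the methods name an orientation mode for the alignment but not the use of strand in counting, so the counts of these 2 genes are uncertain to an extent that was not tested.

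Cyclic AMP also reaches genes through the factor CREB, which binds the letters TGACGTCA and, more weakly, TGACG. The RefSeq promoter table (GRCm38.p6) held 8 promoters of 6 of the 9 genes, and Ppp1r1b, Adora2a and Penk are not in it. In the 250 bases before the start, searched on both strands, the palindrome TGACGTCA occurred in Gpr6 and in none of the other 7 promoters, beside 1.55% of 32851 promoters. TGACG occurred in Gpr6 and Tac1, beside 17.8% of all promoters. The letters TGCGTCA, known from the enkephalin gene and overlapping TGACG on the other strand, occurred in Tac1 only, beside 1.75% of all. GC boxes (GGGCGG) occurred in 5 of 8, beside 32.7%. The windows of Gpr6 and Tac1, the 2 genes with TGACG, are shown 5′ to 3′. They were chosen for display with the results of 4-PBA vs Ligation known, and a link of these letters with those results was not tested. For Gpr6 it is chr10:41072291-41072540 on the minus strand with TGACGTCA in capitals, 78 to 71 bases before the start. For Tac1 it is chr6:7554811-7554878 on the plus strand with TGCGTCA in capitals, 199 to 193 bases before the RefSeq start, and the window ends at the GENCODE start of the gene. A match of letters is a description and not a binding site.
Gpr6: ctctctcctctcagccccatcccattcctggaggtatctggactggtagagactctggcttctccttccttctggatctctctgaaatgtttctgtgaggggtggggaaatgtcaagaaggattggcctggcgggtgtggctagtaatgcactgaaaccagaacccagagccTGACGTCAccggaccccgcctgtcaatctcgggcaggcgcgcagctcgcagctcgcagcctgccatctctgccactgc
Tac1: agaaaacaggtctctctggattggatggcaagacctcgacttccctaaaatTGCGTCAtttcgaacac

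The comparison of 4-PBA vs Ligation asks whether the drug moved these genes in ligated mice. Its CVST_Ligation mice are also those of the comparison that led to the choice, so it is not independent of that choice. A gene is called here when its unadjusted p in edgeR's quasi-likelihood test is below 0.05. The methods state this threshold for their statistics in general and name no test or cut-off for the sequenced genes. All 9 genes had a fold change above 0, with a median log2 of 0.99 and a range of 0.64 to 2.79, beside a median of -0.017 over all genes and 47% of genes above 0. Gpr6 and Tac1 were called higher, that is 2 of 9, where 1.81% of all genes were called higher. For no gene did the groups separate, beside 3.51% of all genes whose 4-PBA mice all lay above the CVST_Ligation mice. With p-values adjusted over all 14746 genes (Benjamini-Hochberg) 0 of the 9 passed, with an adjusted p of 1 for each, and 0% of all genes did.

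Gpr6 rose in 4-PBA mice by a log2 fold change of 2.79 (SE 0.96), from a mean of 0.507 ± 0.360 to 3.56 ± 3.86 CPM (SD, n = 3). Tac1 rose by 1.29 (SE 0.49), from 21.3 ± 6.06 to 52.2 ± 40.6 CPM (SD, n = 3). Both calls rested on 4-PBA 2: without this mouse neither was made, with a log2 fold change of 1.39 (SE 0.83) for Gpr6 and 0.45 (SE 0.33) for Tac1. Both were also lost without CVST_Ligation 1, at 2.51 for Gpr6 and 1.09 for Tac1. Gpr6 missed the threshold on log2(FPKM + 1) in limma too, at 1.26. Hypothalamic neurons also make Tac1, and the summed hypothalamic list was 301, 514 and 581 CPM in 4-PBA 1 to 3, beside Tac1 levels of 36.5, 98.2 and 21.8 CPM. The part of hypothalamic RNA in the Tac1 difference was not tested.

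The other 7 genes did not pass the threshold. Adora2a was closest, with a log2 fold change of 2.35 (SE 1.05). It passed with total counts (2.38) or DESeq2 size factors (2.35) in place of TMM scaling, in DESeq2 (2.36), with all genes that had a count (2.34) and where each library had to reach 10 counts (2.35). It also passed without CVST_Ligation 3 (3.69) and without 4-PBA 3 (2.90), and it was 1.18 and did not pass without 4-PBA 2. The values were 1.09 (SE 0.60) for Penk, 0.99 (SE 0.67) for Drd1, 0.95 (SE 0.58) for Rgs9, 0.80 (SE 0.51) for Ppp1r1b, 0.77 (SE 0.54) for Drd2 and 0.64 (SE 0.70) for Pde10a. Without 4-PBA 3, Ppp1r1b (1.20) and Penk (1.49) passed, and Penk also without CVST_Ligation 3 (1.76). Without 4-PBA 2, Ppp1r1b (-0.03) and Pde10a (-0.09) turned to just below 0.

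The 3 mice of the 4-PBA group differed more from each other than their mean shows. 4-PBA 2 was above all CVST_Ligation mice for 9 of 9 genes and above CVST 3 for 8, Ppp1r1b being the exception. 4-PBA 1 was above all CVST_Ligation mice for 5 genes, which were Drd2, Adora2a, Tac1, Pde10a and Gpr6. 4-PBA 3 was so for 0 genes and was among the lowest 3 of all 9 mice for every gene. The highest 4-PBA mouse exceeded the lowest by a factor of 3.12 for Drd2, 10.98 for Gpr6 and 27.2 for Adora2a.

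4-PBA vs CVST compares the treated ligated mice with mice that had thrombosis alone, and it shares the CVST mice with the comparison that led to the choice. All 9 fold changes were below 0, with a median log2 of -1.24, beside a median of -0.008 over all genes and 51.1% of genes below 0. Ppp1r1b and Rgs9 were called lower, that is 2 of 9, where 7.33% of all genes were. Only Ppp1r1b separated the groups, beside 11.5% of all genes. With adjusted p-values 0 of the 9 passed, beside 0.122% of all genes. Ppp1r1b fell by 1.52 on the log2 scale (SE 0.52, adjusted p = 0.208 in edgeR), from 386 ± 128 to 135 ± 106 CPM (SD, n = 3). Rgs9 fell by 1.60 (SE 0.58, adjusted p = 0.232 in edgeR), from 131 ± 71.7 to 43.3 ± 34.3 CPM (SD, n = 3).

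These calls also depended on single mice. Neither was called without CVST 1 (log2 fold changes -1.25 for Ppp1r1b and -1.11 for Rgs9) or without 4-PBA 1 (-1.34 and -1.29), and Rgs9 was not called without 4-PBA 3 (-1.30). Without 4-PBA 2 the log2 fold changes were -2.35 for Ppp1r1b and -2.48 for Rgs9, and 6 further genes passed the threshold: Drd1 (-1.96), Drd2 (-1.40), Penk (-1.64), Tac1 (-0.87), Pde10a (-2.00) and Gpr6 (-2.43). Without CVST 3, Drd1 (-1.65), Drd2 (-1.23) and Pde10a (-1.77) passed. Tac1 had the smallest difference of the 9, with a log2 fold change of -0.03 (SE 0.48, adjusted p = 0.988 in edgeR) and a sign that changed with total counts in place of TMM scaling (0.03).

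**Figure D3:**
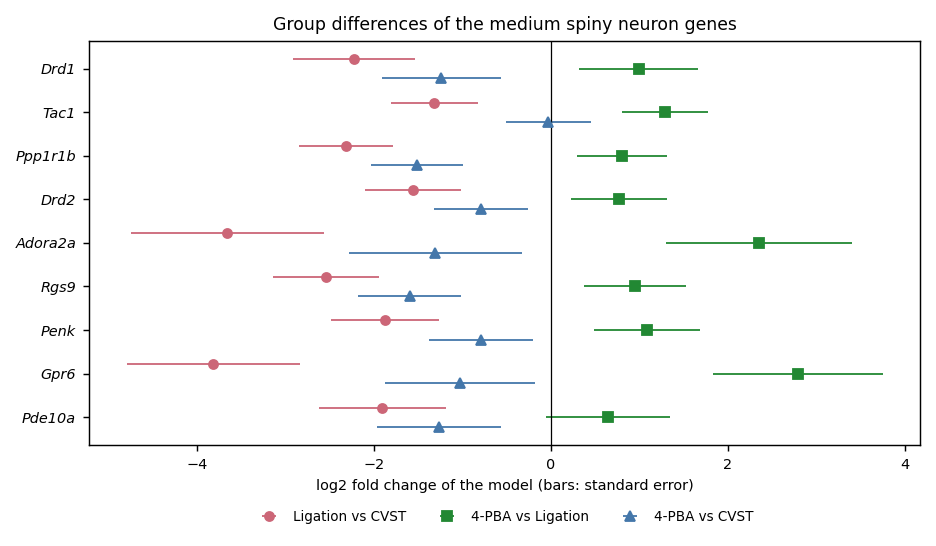
Fitted log2 fold change of the 9 genes in the 3 comparisons; bars are standard errors. Points for Ligation vs CVST lie between -3.82 and -1.32 (the comparison from which the genes were chosen), those for 4-PBA vs Ligation between 0.64 and 2.79 and those for 4-PBA vs CVST between -1.60 and -0.03.

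After the group means were taken away, the Pearson correlation of the log2 levels over the 9 libraries was above 0 for all 36 pairs of genes, with a median of 0.78 and a range of 0.37 (Penk and Pde10a) to 0.95, and the Spearman median was also 0.78. These points share their libraries and hence their tissue piece and depth. The share of other gene pairs with a correlation above 0 was not computed. The correlations pool the 3 groups, and the order of the mice within a group was not the same for all genes: in CVST_Ligation, Pde10a was highest in mouse 1, where Penk and Adora2a were lowest. CVST 1 was the highest of all 9 mice for 8 genes, while CVST_Ligation 1 was the lowest for 5, CVST_Ligation 2 for 2 and 4-PBA 3 for 2. CVST 3 was among the lowest 3 mice for Drd2 and Pde10a.

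Per length (FPKM), the order of the genes was led by the same genes in each group. In CVST mice Penk had 789 ± 109, Ppp1r1b 649 ± 220, Tac1 133 ± 35.3 and Rgs9 60.1 ± 33.1 FPKM (SD, n = 3). Drd1 with 34.0 ± 19.8, Pde10a with 33.8 ± 24.2, Adora2a with 33.1 ± 17.4 and Drd2 with 29.5 ± 17.6 FPKM had ranges that overlapped, and Gpr6 was lowest with 6.56 ± 4.18 FPKM, its range just meeting that of Drd2. Penk and Ppp1r1b overlapped too, while Ppp1r1b and Tac1, and Tac1 and Rgs9, did not. In CVST_Ligation mice Adora2a (2.63 ± 2.70 FPKM) and Gpr6 (0.461 ± 0.316 FPKM) both lay below the range of Drd2 (10.2 ± 1.61 FPKM). In 4-PBA mice the order was that of the CVST_Ligation mice except that Drd1 (14.9 ± 9.92 FPKM) stood before Pde10a (14.5 ± 10.4 FPKM), and every neighbouring pair overlapped but Tac1 and Rgs9.

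Ratios inside 1 library show which genes kept step with each other. Adora2a over Drd2, both genes of the indirect pathway, was 1.14, 1.04 and 1.44 in CVST, 0.103, 0.104 and 0.584 in CVST_Ligation and 0.845, 0.975 and 0.112 in 4-PBA mice, so CVST_Ligation 1, CVST_Ligation 2 and 4-PBA 3 shared a ratio near 0.1. Slc6a3 was 66.2, 5.62 and 58.3 CPM in these 3 mice, and 44.75, 69.5 and 54.5 CPM in CVST_Ligation 3, 4-PBA 1 and 4-PBA 2. The relation of Slc6a3 to the ratio was not tested. Penk over Tac1 was 5.27, 5.91 and 7.01 in CVST, 2.61, 2.74 and 6.29 in CVST_Ligation and 3.77, 3.52 and 2.99 in 4-PBA mice, and the 4-PBA mice all lay below the CVST mice. The share of other gene pairs that separate these groups was not computed, and the part of hypothalamic RNA in this ratio was not tested. Drd2 over Drd1 was 0.735 to 1.05 in CVST and 1.12 to 1.34 in 4-PBA mice, and in CVST_Ligation it ran from 0.813 to 4.88 in CVST_Ligation 2. Rgs9 over Ppp1r1b stayed between 0.0619 and 0.129 in all 9 mice. Gpr6 over Adora2a was 0.133 to 0.293 in 8 mice and 0.631 in 4-PBA 3. Pde10a over Ppp1r1b was 0.0431 to 0.115 except in CVST 3 (0.0158).

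**Figure D4:**
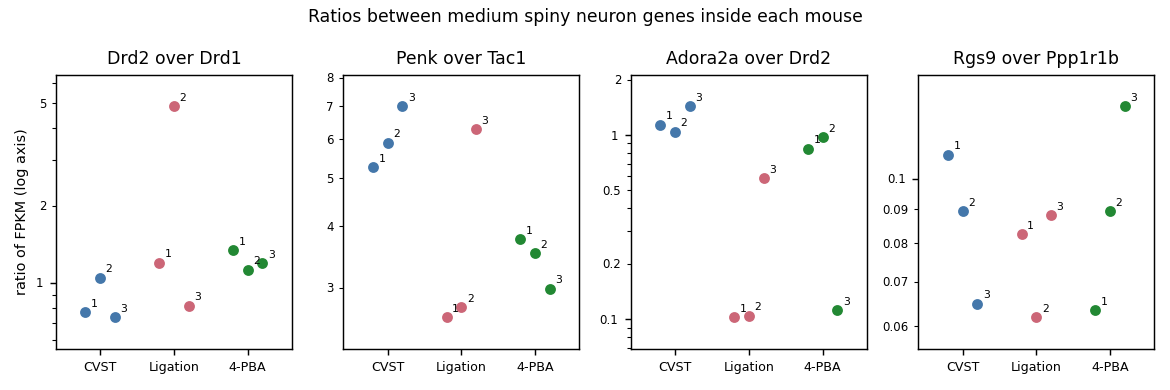
Ratio of the FPKM of a pair of genes in each mouse (log axis, 1 scale per panel); points are mice, numbered within their group. Adora2a over Drd2 is between 1.04 and 1.44 in CVST mice and near 0.1 in CVST_Ligation 1, CVST_Ligation 2 and 4-PBA 3, while Rgs9 over Ppp1r1b stays between 0.0619 and 0.129.

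Another 35 genes known from medium spiny neurons were examined as a separate list, chosen with results of the 9 genes known. In Ligation vs CVST 19 of 35 were called lower and 0 higher, where 4.18% of all genes were called lower and 5.47% higher. Their median log2 fold change was -1.10, with 31 below 0, and 0 passed the adjusted threshold, beside 0.0203% of all genes. The count was 9 without CVST 1 and 11 without CVST 2. These mice are the ones from which the 9 genes were chosen, so the count is not independent of that choice. The midbrain, thalamic and cortical sums differed between the same libraries, and their part in this count was not tested.

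Of 11 signalling genes 8 were called lower. Rasd2, a striatal small G protein, had 102, 95.5 and 26.0 CPM in CVST and 19.4, 22.8 and 25.2 in CVST_Ligation (log2 fold change -1.73, SE 0.49, adjusted p = 0.32 in edgeR). Ptpn5, the striatum-enriched phosphatase STEP, fell by 0.84 on the log2 scale (SE 0.24, adjusted p = 0.322).

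Of 6 direct pathway genes 3 were called lower: Slc35d3 (-2.16, SE 0.72), Pdyn, the dynorphin precursor (-1.54, SE 0.62), and Chrm4, the muscarinic M4 receptor (-1.18, SE 0.46), with adjusted p in edgeR of 0.405, 0.468 and 0.462. Of 3 indirect pathway genes only Gpr52, a receptor that raises cyclic AMP, was called (-1.77, SE 0.55, adjusted p = 0.369), while the factors Six3 (-0.60, SE 0.44) and Sp9 (-0.95, SE 0.72) were not. Of 8 transcription factors 4 were called lower, led by Foxp1 (-1.24, SE 0.33), Rarb (-1.57, SE 0.54) and Rxrg (-1.68, SE 0.68), with adjusted p of 0.299, 0.411 and 0.482. Of 7 channel, cytoskeletal and membrane genes 3 were called lower, which were Lrrc10b (-1.92, SE 0.66), Syndig1l (-1.49, SE 0.60) and Tmem158 (-1.10, SE 0.44).

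In 4-PBA vs Ligation 6 of the 35 were called higher and 0 lower, beside 1.81% and 1.42% of all genes. They were Isl1 (3.97, SE 0.93), Six3 (1.81, SE 0.44), Gpr149 (1.66, SE 0.53), Slc35d3 (1.63, SE 0.72), Pdyn (1.57, SE 0.62) and Zfp503 (0.77, SE 0.26), each with an adjusted p of 1. The count was 2 without 4-PBA 2, 3 without CVST_Ligation 1 and 12 without 4-PBA 3. Isl1, Six3, Zfp503 and Gpr149 were also called higher in 4-PBA vs CVST, against the direction of the 9 genes. Isl1 and Six3 are also factors of hypothalamic neurons, whose summed list is higher in all 4-PBA mice than in the other 6, and that list's part in these 4 genes was not tested. In 4-PBA vs CVST 6 of the 35 were called lower and 4 higher, beside 7.33% and 8.07% of all genes, and the count lower ran from 2 (without CVST 1, CVST 2, 4-PBA 1 or 4-PBA 3) to 11 (without CVST 3 or 4-PBA 2). The count higher was 2 without CVST 2, CVST 3 or 4-PBA 2.

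**Figure D5:**
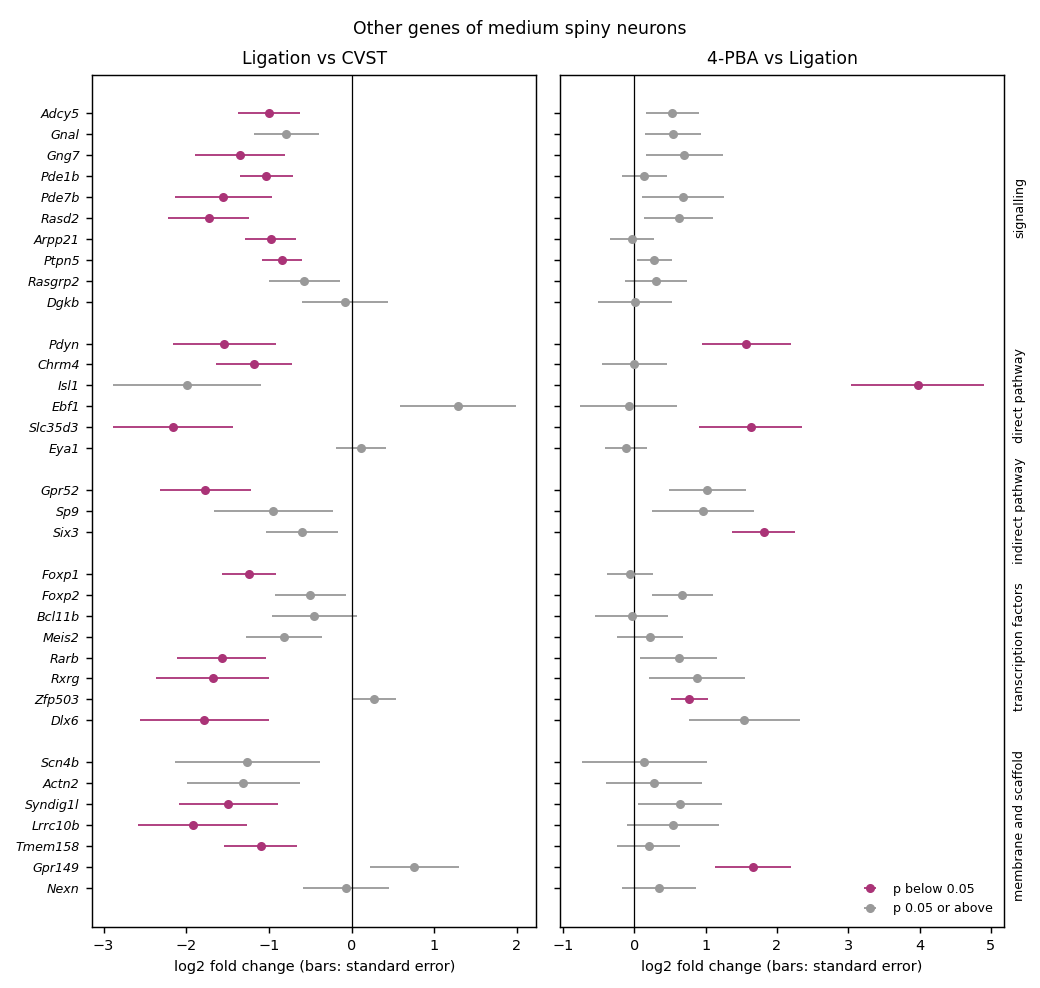
Fitted log2 fold change of other medium spiny neuron genes in 5 groups by role, for Ligation vs CVST (left) and 4-PBA vs Ligation (right); bars are standard errors and colour marks an unadjusted p below 0.05. On the left every coloured gene lies below 0, and on the right 6 genes are coloured, all above 0.

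A further list held 17 receptors, relatives and partners of the 9 genes. In Ligation vs CVST 4 of them were called lower and 1 higher, beside 4.18% and 5.47% of all genes. Rgs7bp (-0.71, SE 0.19) and Gnb5 (-0.43, SE 0.12), both partners of the Rgs9 protein, and Ppp1ca (-0.43, SE 0.12), the phosphatase that DARPP-32 inhibits, fell, with adjusted p from 0.299 to 0.308. Drd3 rests on few counts, with 0.595, 0.310 and 0.217 CPM in CVST and 0.0827, 0.103 and 0 in CVST_Ligation. Tacr3, a neurokinin receptor, rose by 1.45 on the log2 scale (SE 0.46, adjusted p = 0.38), from 1.23, 1.64 and 2.12 CPM to 5.08, 5.77 and 2.73 CPM. General GABAergic genes (Gad1, Gad2 and Slc32a1) had 0 of 3 called, with a median log2 fold change of 0.12 and a summed level of 682 to 1038 CPM in CVST and 722 to 865 in CVST_Ligation. Genes of cholinergic neurons, which include striatal interneurons, had 0 of 4 called in either direction in Ligation vs CVST, beside the same shares of all genes, with Chat at 7.39, 4.17 and 0.977 CPM in CVST and 0.248, 8.92 and 1.10 in CVST_Ligation. In Lhx8, a factor of such neurons, every CVST_Ligation mouse (0, 0 and 0.483 CPM) lay below every CVST mouse (1.06, 1.55 and 0.922 CPM).

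The genes whose profile over the 9 libraries was most like the mean scaled profile of the 9 genes included Cd4, Rarb, Rasd2, Adcy5, Tmod1, Sh3rf2, Cpne5, Pde1b and Arg2, all among the first 10 of 14737 genes, with Pearson r from 0.963 down to 0.926. Of the 35 other medium spiny neuron genes 17 were among the first 100. By deviations from the group means the first 10 were Spock3, Arhgap10, Zfp362, Mppe1, Copg2, Mtmr7, Phc2, Derl3, Prkar2b and Kcnk2, with r from 0.982 down to 0.945, and 8 of the 35 were among the first 100. No gene stood in both lists of 10. The names depended on the measure: 5 of each 10 were also among the first 10 by Spearman rho, and with total counts in place of TMM scaling 9 of the first list and 7 of the second were shared. The points of each correlation share libraries, so these are descriptions without a test.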

How the data were processed

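According to the methods and the labels, the authors filtered reads with fastp, aligned them with HISAT2 to mm10/GRCm38, assembled with StringTie and quantified with RSEM; versions and the program that counted the reads are not given in the sources used here. The authors deposited raw counts of 20731 gene symbols and an expression table that the methods call TPM. Its deposited values are FPKM: each equals the count over the library total and 1 length per gene (17446 lengths recovered, 74.8% of them multiples of 3, so mostly coding length).

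Counts were scaled by TMM and fitted in edgeR 4.0.16 (R 4.3.3) with the 3 groups in 1 quasi-likelihood model, after filterByExpr kept 14746 genes, and p-values were Benjamini-Hochberg adjusted over all of them. Pseudocounts of 0.1 and 1 were used on log2 FPKM in limma 3.58.1, and DESeq2 1.42.0 was an alternative. The 9 genes and all gene lists were chosen with earlier results of these data known. Genes named are the 9, in each list of other medium spiny neuron genes and relatives the 3 with the smallest p in Ligation vs CVST and any called against the 9, and the 10 most like the 9. The names beyond this rule (Drd3, Lhx8, hippocampal genes, and those called in 4-PBA vs Ligation) were chosen after their values were seen. With 3 mice per group, the p-values set each group difference against the spread between mice, which the 1 fit estimated from all 9 libraries. The values of 1 gene that the rule names are not reported here.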

Additional observations from a re-analysis of the deposited data

How the results depend on the processing

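Ligation vs CVST stayed below 0 for each of the 9 genes in every alternative run that could give its value; Gpr6 has no value once each library must reach 10 counts, since that filter removes it. The number of genes called in that comparison was 1422 and ranged from 1183 to 1765, and without 1 library from 1206 to 1661. The number with adjusted p below 0.05 in edgeR was 3 in Ligation vs CVST, and it was 0 where each library had to reach 10 counts, 264 in DESeq2, 13 in limma on log2(FPKM + 0.1), 1 with only the 2 groups compared and 0 to 7 without 1 library. In 4-PBA vs Ligation it was 0 (476 genes at an unadjusted p below 0.05), and it was 22 in DESeq2, 2 in limma on log2(FPKM + 1) and 0 to 2 without 1 library, while the number called was 256 without 4-PBA 2 and 1497 without CVST_Ligation 2. In 4-PBA vs CVST it was 18, and it was 6 where each library had to reach 10 counts, 855 in DESeq2, 112 with all genes that had a count, 134 and 87 in limma with 0.1 and 1 added, 234 with only the 2 groups and 2 to 162 without 1 library. The other medium spiny neuron genes called lower in Ligation vs CVST numbered 9 to 20 without 1 library. In DESeq2 Ppp1r1b passed the adjusted threshold in 4-PBA vs CVST (adjusted p = 0.0417). The cause of these shifts was not tested.

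Signs turned for Ppp1r1b (-0.03) and Pde10a (-0.09) in 4-PBA vs Ligation without 4-PBA 2, where leaving out 1 library gave up to 1.20 and 1.05, and for Tac1 in 4-PBA vs CVST with total counts (0.03), without CVST 1 (0.21), without 4-PBA 1 (0.18) and without 4-PBA 3 (0.34), the lowest value of Tac1 being -0.87 without 4-PBA 2. Scaling by total counts raised the share of calls that were higher from 52.4% to 65.1% in 4-PBA vs CVST, from 56.1% to 66.1% in 4-PBA vs Ligation and from 56.7% to 65.4% in Ligation vs CVST. With 0.1 and 1 added, limma gave 65.9% and 65.0% in the first, 71.0% and 72.4% in the second and 62.1% and 59.9% in the third.

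Same-numbered libraries had correlations of -0.052 to 0.324 between their deviations from the group means. Without the differently numbered pairs beside them, these values cannot show whether the replicate numbers pair the mice or mark a batch. With the replicate number as a block 1765, 521 and 2644 genes were called in Ligation vs CVST, 4-PBA vs Ligation and 4-PBA vs CVST, 1 gene passed the adjusted threshold in Ligation vs CVST and 1 in 4-PBA vs Ligation, and Gpr6 was not called in 4-PBA vs Ligation (log2 fold change 2.15).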

Other observations

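Cd4, which had the highest Pearson r with the mean profile of the 9 in levels (0.963) but a Spearman rho of 0.933 below that of Rasd2 and Arg2 (both 0.967) and no place among the first 10 by deviations from the group means, encodes a co-receptor of T helper cells. It had 9.26, 11.0 and 2.55 CPM in CVST, 0.331, 0.361 and 0.352 in CVST_Ligation and 1.35, 6.94 and 0.610 in 4-PBA mice, from 218, 248 and 47 counts, 8, 7 and 8 counts, and 25, 165 and 16 counts. The T cell genes Cd3d, Cd3e and Cd3g had at most 4 counts and Cd8a at most 1 count in any library, while Lck, a T cell kinase, had 17 to 87 counts. These genes were looked up after the level of Cd4 had been seen, and the cells that hold this Cd4 RNA were not identified.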
